A study of Homo sapiens with 4 samples.

Results

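The genes described are those of the SR proteins, the hnRNPs and 9 further regulators of alternative splicing in Ishikawa cells. Rows of the count table were taken by symbol, SRSF or HNRNP followed by a number or letters, together with TRA2A, TRA2B, PTBP1, PTBP2, ESRP1, ESRP2, RBFOX2, MBNL1 and MBNL2. This gave 50 rows, of which 4 pseudogenes were left out (HNRNPA1P10, HNRNPA1P33, HNRNPA3P1 and HNRNPKP3). The remaining 46 of 26364 gene symbols were 12 SR protein genes, 25 hnRNP genes and the 9 others.

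Ishikawa is a human endometrial adenocarcinoma line, and the cells were clones in which ESR1, the gene for estrogen receptor alpha, carries the Y537S mutation of the ligand-binding domain. The study asked how the mutant receptor affects gene expression. All cells had been kept in hormone-depleted medium, and then received either 0.1% DMSO as vehicle or estradiol (E2) at 10 nM, each for 8 h. Each treatment had 1 library from each of 2 clones, 4 libraries in all, and no library of the unmutated line was used. The column names tell the clones apart by the tags A4 and B212, while the labels number them, so tags are used here. Each clone had a single library per treatment, and p-values measure the spread between these libraries alone. A difference between A4 and B212 is one between the libraries of 2 clones and cannot be assigned to the mutation.

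SR proteins bind exonic enhancer sequences in pre-mRNA through RNA recognition motifs and recruit the spliceosome through domains rich in arginine and serine. The hnRNPs are a diverse set of RNA-binding proteins that coat nascent transcripts, and many of them repress nearby splice sites. The ratio of such activators to repressors is a known determinant of exon inclusion, and ESRP1 and ESRP2 maintain the exon choices typical of epithelial cells.

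Promoters were examined because E2 acts through a DNA-binding receptor. RefSeq (GRCh38.p14) gave the 250 bases before the transcription start for 39 of the 46 genes. The sequences of 4 genes are shown because these were the members called in 1 of the E2 comparisons described further on, SRSF7 and HNRNPC higher and HNRNPM and HNRNPUL2 lower. Each is written 5′ to 3′ on the strand of the gene, and capitals mark the estrogen receptor half-site GGTCA and the CCAAT box, on either strand.
SRSF7 chr2:38751495-38751744 (minus strand): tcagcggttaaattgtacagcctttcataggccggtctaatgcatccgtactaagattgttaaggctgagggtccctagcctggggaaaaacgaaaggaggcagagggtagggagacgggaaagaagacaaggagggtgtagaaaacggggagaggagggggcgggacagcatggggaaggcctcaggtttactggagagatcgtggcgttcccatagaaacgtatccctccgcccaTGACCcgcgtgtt
HNRNPC chr14:21269443-21269692 (minus strand): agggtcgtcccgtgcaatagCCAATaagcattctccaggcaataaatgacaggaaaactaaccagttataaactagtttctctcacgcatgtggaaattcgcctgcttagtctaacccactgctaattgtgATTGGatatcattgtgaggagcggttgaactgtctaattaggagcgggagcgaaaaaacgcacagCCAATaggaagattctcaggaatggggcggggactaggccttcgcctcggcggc
HNRNPM chr19:8444725-8444974 (plus strand): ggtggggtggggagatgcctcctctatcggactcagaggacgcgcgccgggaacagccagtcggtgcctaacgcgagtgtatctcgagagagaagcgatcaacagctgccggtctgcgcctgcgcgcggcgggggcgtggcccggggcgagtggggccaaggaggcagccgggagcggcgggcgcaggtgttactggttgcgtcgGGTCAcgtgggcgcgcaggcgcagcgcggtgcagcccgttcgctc
HNRNPUL2 chr11:62727458-62727707 (minus strand): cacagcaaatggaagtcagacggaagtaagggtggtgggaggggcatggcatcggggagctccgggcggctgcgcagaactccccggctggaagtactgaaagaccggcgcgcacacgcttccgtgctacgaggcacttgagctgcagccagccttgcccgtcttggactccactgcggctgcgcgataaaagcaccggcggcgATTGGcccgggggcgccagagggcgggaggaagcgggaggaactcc
SRSF7 held 1 half-site near its start, read on the opposite strand, and HNRNPM held 1, whose last bases overlapped an E-box. HNRNPC held 3 CCAAT boxes and HNRNPUL2 held 1. The base composition also differed among the 4, from 48.4% G and C in HNRNPC to 71.6% in HNRNPM.

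Across the 39 promoters the median G and C content was 64.8%, against 58.0% in all 35116 promoters of the table, and the median ratio of observed to expected CpG was 0.904 against 0.558. The full palindromic estrogen response element, GGTCA and TGACC separated by any 3 bases, was in 0 of the 39 promoters and in 14 of 35116 (0.0399%). The half-site GGTCA alone was in 13 of the 39 (33.3%) and in 32.6% of all promoters, nearly equal shares. CCAAT was in 46.2% of the members' promoters and in 32% of all, and the GC box GGGCGG was in 61.5% and 42.6%. The E-box CACGTG was in 15.4% against 6.34%, the ETS core CCGGAAG in 12.8% against 8.52%, and TATAAA in 12.8% against 10.7%. All motifs were searched on both strands, and a match is only a match of letters. Base composition differed between the groups of promoters and its part in these shares was not tested.

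Nearly all members were measured at depth. The libraries held 71575816 to 85222856 counts, and 42 of the 46 genes passed the filter on low counts. The 4 that did not were HNRNPCL1, HNRNPCL3 and HNRNPCL4, at 0 counts in every library, and HNRNPCL2, at 1 to 3 counts. A count of 0 covers counting error only, and 66.61% to 96.24% of the 32-base words of these intronless HNRNPC-like genes recur in other genes, and how shared reads were assigned is not given in the sources used here. Together the members took 1.569% (A4 DMSO), 1.463% (A4 E2), 1.545% (B212 DMSO) and 1.531% (B212 E2) of all counts. Wilson 95% intervals, which cover counting error only, reached at most 0.0028 percentage points either side. The hnRNP genes took 0.9614% to 1.071% and the SR genes 0.2934% to 0.3196%. The SR share was higher in both E2 libraries (0.3146% and 0.3196%) than in both DMSO libraries (0.2962% and 0.2934%), with no overlap, and the hnRNP share was lower with E2 within each tag.

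Levels are compared between genes as CPM (read counts scaled to library size) per kilobase, using the length of 1 transcript per gene, the longest coding one. The highest was HNRNPA2B1, an abundant binder of pre-mRNA, at 404.1 to 478.6 CPM per kilobase over the 4 libraries. HNRNPK, a protein that binds runs of cytosine, followed at 398.8 to 418.4, so the ranges of the top pair overlapped. HNRNPAB came next at 248 to 335.5, and SRSF1, the founding SR protein, was the highest SR gene at 234.4 to 245.3. Below them lay a broad group of 16 genes with mean levels between 95.29 (SRSF6) and 213.5 (HNRNPM). Of the 41 pairs of neighbours in this order, 31 had overlapping ranges, so the order within that group is not firm. SRSF10 (1.672 to 2.343), PTBP2 (2.881 to 4.251), ESRP2 (3.967 to 5.353) and SRSF12 (4.727 to 6.266) stood near the bottom, above HNRNPH2 alone. The level of PTBP2 rests on a transcript of 12014 bases, and a shorter form would give a higher value per kilobase.

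**Figure D1:**
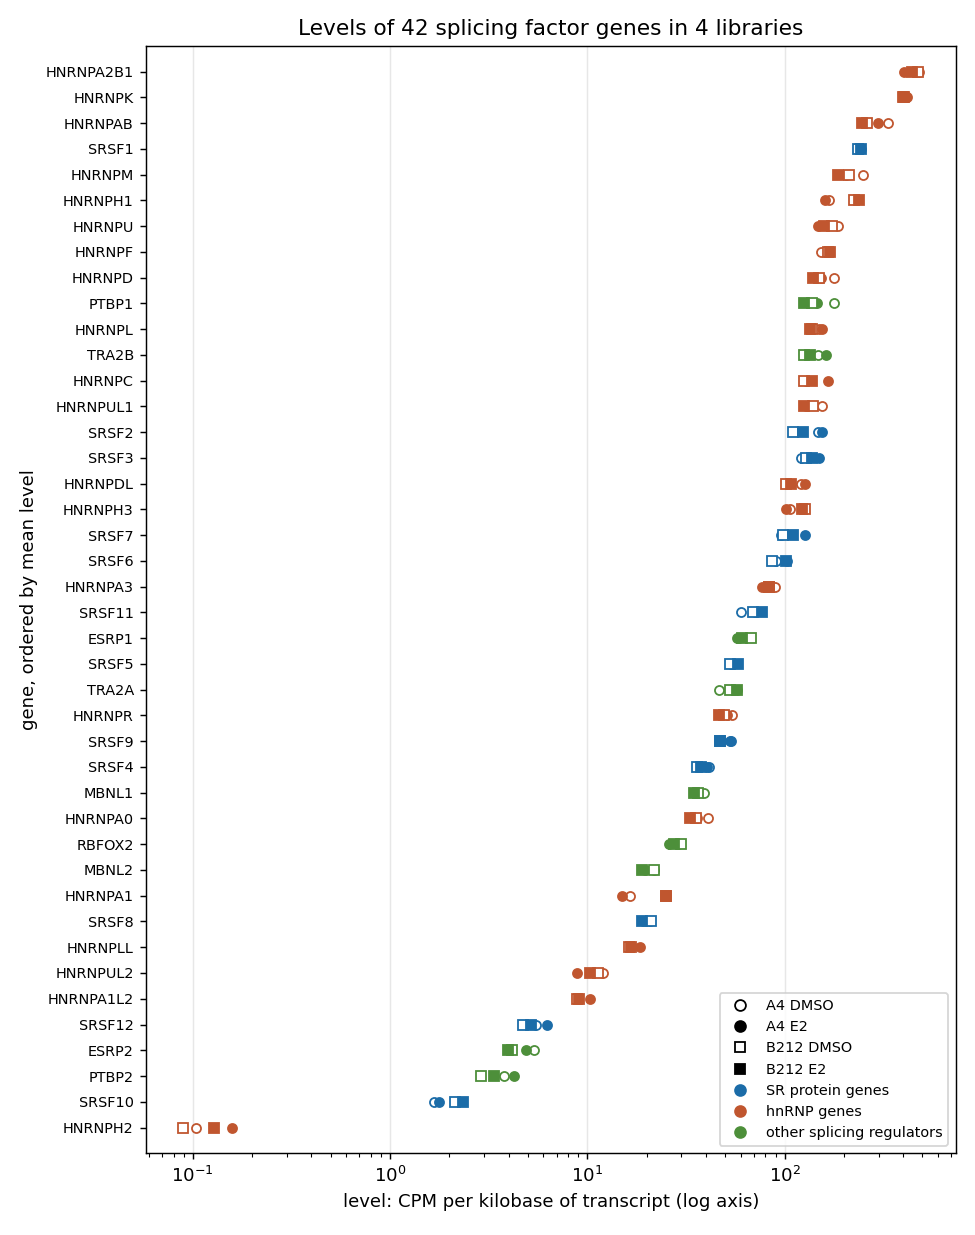
Level of each of the 42 tested genes in CPM per kilobase of transcript (log axis), with 1 symbol per library and colour by group. The libraries of a gene lie close together beside the range between genes, from 0.1205 (mean of HNRNPH2) to 449.9 (HNRNPA2B1).

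Several members share sequence with near-identical copies, and how such reads were assigned was not tested. HNRNPA1, a well-studied splicing repressor, had 15.05 to 25.13 CPM per kilobase, and 30.00% of its 32-base words recur in other genes, 77 of them. HNRNPH2 had 17, 29, 17 and 21 counts (A4 DMSO, A4 E2, B212 DMSO, B212 E2). Of its words, 19.62% recur elsewhere, among them in the readthrough gene RPL36A-HNRNPH2, whose own row was at 0. HNRNPA1L2 shared 75.39% of its words, and HNRNPUL2 shared 45.40%, with its readthrough partner HNRNPUL2-BSCL2 at 0 in all libraries. Sharing was also found for SRSF1 (59.36%), HNRNPL (38.81%), HNRNPK (29.85%) and HNRNPC (15.75%). SRSF7 shared 0.00% and HNRNPM 0.12%.

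The labelled cell type was checked against marker genes. All 7 epithelial markers, ESR1 among them, were above 10 CPM in every library, with a sum of 2298 to 3059 CPM. The 4 leukocyte markers summed to 0.4506 to 0.573 CPM with CD3E at 0, and the 3 endothelial markers to 2.109 to 4.499 CPM with PECAM1 at 0. The 8 mesenchymal markers summed to 674.5 to 826.7 CPM, almost all from CDH2 and COL1A1, while VIM was at most 0.41 CPM. In bulk RNA, a change in the number of cells expressing a gene and a change in RNA per cell cannot be told apart.

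E2 was first compared with DMSO in the 4 libraries without regard to clone. None of the 42 genes passed. By the quasi-likelihood test of edgeR, the adjusted p (Benjamini-Hochberg) was under 0.05 for 0 of 15599 genes, a share of 0%, and DESeq2 called 0 members. At an unadjusted p under 0.05 there were 0 members and 150 genes in all. The median log2 fold change over the members was 0.01, beside −0.01 over all genes tested.

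With the tag as a replicate block, which compares the treatments within each clone, 4 of the 42 genes were called (9.52%). Over all genes 9.56% were called, so the members' share equalled the background. SRSF7 and HNRNPC were higher with E2 (2 of 42, with 6.13% of all genes called higher), and HNRNPM and HNRNPUL2 were lower (2 of 42, with 3.44% called lower). None of the 4 calls was kept in every alternative fit, as given after the values.

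SRSF7 encodes a small SR protein with a zinc knuckle that binds pre-mRNA and couples splicing to export. It had 239.6 CPM (A4 DMSO), 314.2 (A4 E2), 243.5 (B212 DMSO) and 275.2 (B212 E2). Both E2 libraries lay above both DMSO libraries, and the rise was larger in A4. The log2 fold change with the block was 0.28 ± 0.07 (SE, n = 2 per group) with an edgeR adjusted p of 0.0208, against an adjusted p of 1 with no block.

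HNRNPC, which forms the core tetramer of hnRNP particles and binds runs of uridine, had 576 and 747.9 CPM in A4 (DMSO, E2) and 566.7 and 618.3 CPM in B212. Again the groups did not overlap and the A4 E2 library stood highest. The blocked log2 fold change was 0.25 ± 0.08 (SE, n = 2 per group), with an edgeR adjusted p of 0.045 and of 1 with no block.

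HNRNPM, a repressor and activator of alternative exons that competes with ESRP proteins at some of them, had 639.7 and 525.5 CPM in A4 (DMSO, E2) and 546.5 and 481 CPM in B212. Both E2 libraries were below both DMSO libraries. The blocked log2 fold change was −0.23 ± 0.07 (SE, n = 2 per group), with an edgeR adjusted p of 0.0462 and of 1 with no block.

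HNRNPUL2, a relative of the scaffold-binding HNRNPU, had 62.82 and 46.6 CPM in A4 (DMSO, E2) and 59.61 and 54.24 CPM in B212. The groups did not overlap, and most of the difference lay in A4, at −0.43 against −0.14 in B212 on the log2 scale. The blocked log2 fold change was −0.28 ± 0.08 (SE, n = 2 per group), with an edgeR adjusted p of 0.0324 and of 1 with no block.

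All 4 calls stood close to the threshold. With DESeq2 size factors in edgeR none passed, at adjusted p of 0.0561 (SRSF7), 0.0631 (HNRNPUL2), 0.0676 (HNRNPM) and 0.091 (HNRNPC). Over all 15599 genes that fit called 455 higher and 262 lower. In DESeq2, which called 3.60% of all genes, SRSF7 alone was kept, at an adjusted p of 0.0479. When each library was corrected for a trend with gene length and GC content, with the block kept, 3.89% of all genes and 2 members were called, and these were other genes. They were HNRNPA2B1 (−0.27, edgeR adjusted p of 0.0494) and MBNL2 (−0.25, 0.0225), both lower with E2. HNRNPA2B1 had 1754, 1481, 1746 and 1614 CPM (A4 DMSO, A4 E2, B212 DMSO, B212 E2), so both E2 libraries lay below both DMSO libraries. The 4 genes above then had log2 fold changes of 0.17 (SRSF7), 0.20 (HNRNPC), −0.20 (HNRNPM) and −0.17 (HNRNPUL2), with adjusted p from 0.0754 to 0.133. HNRNPU, named after its values were seen because it fell just outside the threshold, had 1280, 1016, 1199 and 1082 CPM in the same order of libraries. Its blocked log2 fold change was −0.24 with an edgeR adjusted p of 0.0521. When libraries were scaled by size only it passed, at −0.26 (edgeR adjusted p = 0.0264), as did HNRNPUL1 (−0.24, 0.0357) and PTBP1 (−0.23, 0.048).

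The SR genes and the hnRNP genes leaned to different sides. With the block 11 of the 12 SR genes had a log2 fold change above 0, the exception being SRSF8 at −0.13, and their median was 0.11. Among the 21 tested hnRNP genes 13 were below 0, with a median of −0.07, and 6 of the 9 others were below 0. Over all genes 48.5% were above 0. The SR count fell to 8 of 12 when libraries were scaled by size only or corrected for length and GC, and the SR median to 0.09 and 0.06. In those 2 fits 6984 and 7261 of all 15599 genes were above 0, and the median over all genes went from −0.01 to −0.03 and −0.01. This is a description of counts with 1 called gene among the SR genes, and the direction of the uncalled genes is not established.

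**Figure D2:**
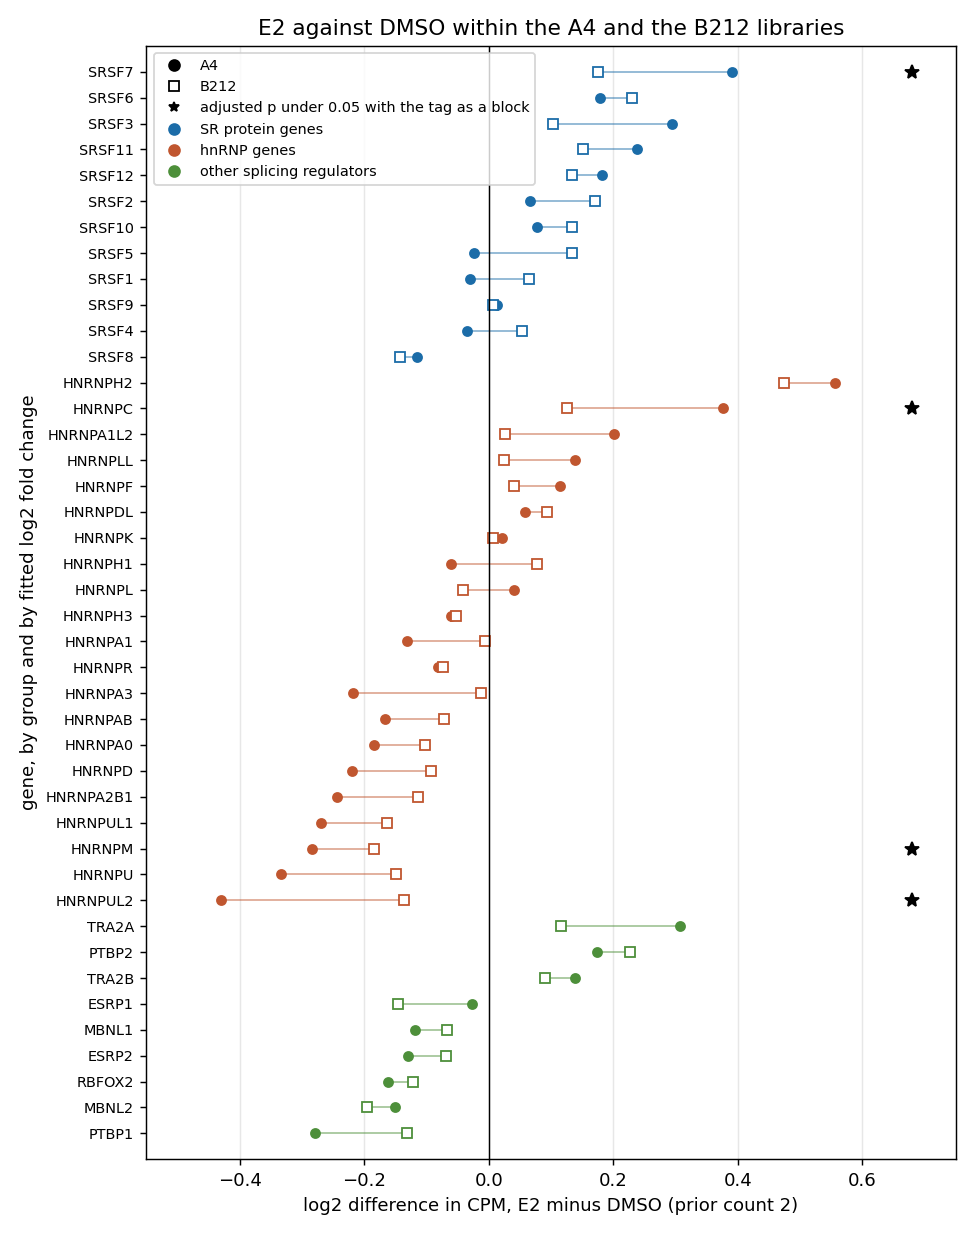
Log2 difference in CPM between the E2 and DMSO libraries of each tag for 42 genes (filled circles A4, open squares B212), ordered by group, with a star at the 4 genes called with the tag as a block. SR genes lie mostly to the right of 0, and SRSF7 moved by 0.39 in A4 and 0.18 in B212.

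Between tags the direction of the E2 difference was the same for 88.1% of the 42 members, beside 70.1% of all genes tested. Among lists described further on it was 97.6% for core spliceosome genes and 88.2% for other regulators of alternative splicing. It was 75% for exon junction complex and SR-related genes, 72.7% for SR protein kinases and import, and 57.1% for arginine methyltransferases. Above 0 in both were 18 members, below 0 in both 19, and 5 differed. The median absolute log2 difference was 0.16 in A4 and 0.11 in B212, and over all genes 0.18 and 0.12, so members moved about as much as other genes.

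The 9 splicing regulators outside the SR and hnRNP families gave 0 calls by edgeR with the block and 0 by DESeq2. Of all genes 9.56% and 3.60% were called in these fits, so few calls among 9 genes would be looked for. At an unadjusted p under 0.05 in edgeR there were 4 of the 9, and 3953 of all 15599 genes. As given above, PTBP1 was called with scaling by library size only and MBNL2 after correction for length and GC. TRA2A, which binds GAA-rich enhancers as TRA2B does, had 103.9 and 128.5 CPM in A4 (DMSO, E2) and 118.4 and 128.3 in B212 (blocked log2 fold change 0.21, edgeR adjusted p = 0.0675). TRA2B had 437.5, 481.5, 372.4 and 396.7 CPM (A4 DMSO, A4 E2, B212 DMSO, B212 E2). PTBP1, the polypyrimidine tract binding repressor, had 653.5, 538.5, 505.7 and 461.5 CPM (−0.21, edgeR adjusted p = 0.0818). PTBP2, its neuronal paralog, had 45.28, 51.08, 34.61 and 40.5 CPM, so its E2 library lay above its DMSO library in both tags and that of PTBP1 below, with an edgeR adjusted p of 0.104 for PTBP2.

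ESRP1 had 222.8, 218.7, 256.6 and 231.9 CPM in that order, and ESRP2 had 20.3, 18.55, 15.77 and 15.05 CPM. E2 differences of this pair were small beside their difference in level. RBFOX2, which binds GCAUG, had 200.5, 179.2, 207 and 190.2 CPM, with the E2 library below the DMSO library in both tags (blocked log2 fold change −0.14, edgeR adjusted p = 0.204). MBNL1 and MBNL2 are the muscleblind proteins, which bind sites with a GC core. MBNL1 had 253.5, 233.5, 234.9 and 224.2 CPM, and MBNL2 had 101.6, 91.62, 101.7 and 88.82 CPM. For MBNL2 both E2 libraries lay below both DMSO libraries (−0.17, edgeR adjusted p = 0.12 with the block).

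The clones differed more than the treatments did. With treatment as a covariate edgeR called 14 of the 42 members between B212 and A4 (33.3%), against 51.0% of all genes. It called 4 members higher in B212, where 25.2% of all genes were called higher, and 10 lower, where 25.8% were called lower. Differences were small: 1 of the 42 members, HNRNPA1, reached an absolute log2 fold change of 0.5 (2.38%), beside 28.9% of all genes. HNRNPH1 lay just under it at 0.4969 and passed it with library size only (0.56), as PTBP2 did after correction for length and GC (−0.57). At a fold change of at least 1 on the log2 scale with the adjusted p, 0 members passed and 11.0% of all genes did. Scaled by library size only, 6 members were called higher and 6 lower, and after the correction for length and GC 3 higher and 20 lower. Over all 15599 genes the same fits called 4761 higher and 3176 lower, and 3632 higher and 5268 lower.

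HNRNPA1 was highest in B212 relative to A4. It had 67.92 and 62.01 CPM in A4 (DMSO, E2) and 103.6 and 103.1 CPM in B212. The tags were far apart and the treatments close together. The log2 fold change was 0.67 ± 0.07 (SE, n = 2 per tag), with an edgeR adjusted p of 1.59e-07. As given above, 30.00% of its 32-base words recur in other genes, and the part of shared reads in this difference was not tested.

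HNRNPH1, which binds runs of guanine, had 614.7 and 589.1 CPM in A4 and 826.5 and 872.5 CPM in B212 (log2 fold change 0.50 ± 0.07, edgeR adjusted p = 1.35e-05). Its smaller relative HNRNPH3 had 249.2 and 238.8 CPM in A4 and 296.2 and 285.4 in B212 (0.25 ± 0.07, edgeR adjusted p = 0.00484). HNRNPH1 and HNRNPH3, of the G-run binding family, were thus higher in both B212 libraries. HNRNPF, of the same family, was not called (0.07, edgeR adjusted p = 0.424), nor was HNRNPH2 with its few counts (−0.27, edgeR adjusted p = 0.601). SRSF10, an SR protein that acts as a repressor when dephosphorylated, had 5.83, 6.156, 7.452 and 8.171 CPM (0.38 ± 0.11). Its edgeR adjusted p of 0.00833 became 0.0927 in DESeq2 and 0.0755 after correction for length and GC.

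SRSF2, a nuclear SR protein mutated in myeloid malignancies, had the lowest log2 fold change of the members in this fit, though not after correction for length and GC, where PTBP2 was lower. It had 428.1 and 448.5 CPM in A4 (DMSO, E2) and 316.9 and 356.7 CPM in B212, without overlap. The log2 fold change was −0.38 ± 0.07 (SE, n = 2 per tag), with an edgeR adjusted p of 1.65e-04. SRSF12 was the other SR gene called lower, at −0.25 (edgeR adjusted p = 0.0213). It was lost in DESeq2 (0.0974) and with scaling by library size only (0.102).

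PTBP1 and PTBP2 were lower in B212. PTBP2 had a log2 fold change of −0.36 ± 0.08 (edgeR adjusted p = 5.65e-04) and PTBP1 of −0.30 ± 0.07 (edgeR adjusted p = 0.00218). For each, the ranges of the tags given above did not overlap. After correction for length and GC the value of PTBP2 was −0.57. Their relative PTBP3, from the list of other regulators and named after its values were seen, was not called (0.10, edgeR adjusted p = 0.228). TRA2B was lower at −0.26 ± 0.07 (edgeR adjusted p = 0.00514), whereas TRA2A was not called (0.09, edgeR adjusted p = 0.293). The difference between such paralogs was not tested.

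Of the epithelial splicing regulators ESRP2 was lower in B212, at −0.33 ± 0.09 (edgeR adjusted p = 0.00384), and ESRP1, the more abundant, was not called (0.14, edgeR adjusted p = 0.0942). ESRP1 passed at 0.0145 when libraries were scaled by size only. Markers differed in the same contrast, in both directions. ZEB1, a repressor of epithelial genes, had 6.404 and 6.619 CPM in A4 (DMSO, E2) and 1.359 and 1.405 in B212. COL1A1 had 127.8 and 92.41 CPM in A4 and 42.41 and 34.53 in B212, whereas CDH2 had 646.1 and 574.3 against 782.8 and 754.9. The summed epithelial markers were 2450 and 2298 CPM in A4 and 3059 and 2774 CPM in B212, and the summed mesenchymal markers 782.1 and 674.5 against 826.7 and 791.1. Their part in the result was not tested.

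Among the hnRNP genes HNRNPAB was the lowest in B212, with 602.6 and 536.9 CPM in A4 and 468.3 and 445.4 CPM in B212 (−0.32 ± 0.07, edgeR adjusted p = 0.00107). HNRNPDL (−0.24), HNRNPD (−0.19) and HNRNPM (−0.18) were also called lower. None of these 3 passed with scaling by library size only, at edgeR adjusted p of 0.0502, 0.167 and 0.229. In DESeq2 HNRNPD (0.0559) and HNRNPM (0.0758) were lost and HNRNPDL was kept (0.0117). RBFOX2 (0.07), MBNL1 (−0.08) and MBNL2 (−0.02) were not called between the clones. MBNL2 changed sign with scaling by library size only. After correction for length and GC both muscleblind genes were called lower, MBNL1 at −0.20 (edgeR adjusted p = 0.00775) and MBNL2 at −0.18 (edgeR adjusted p = 0.0126).

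**Figure D3:**
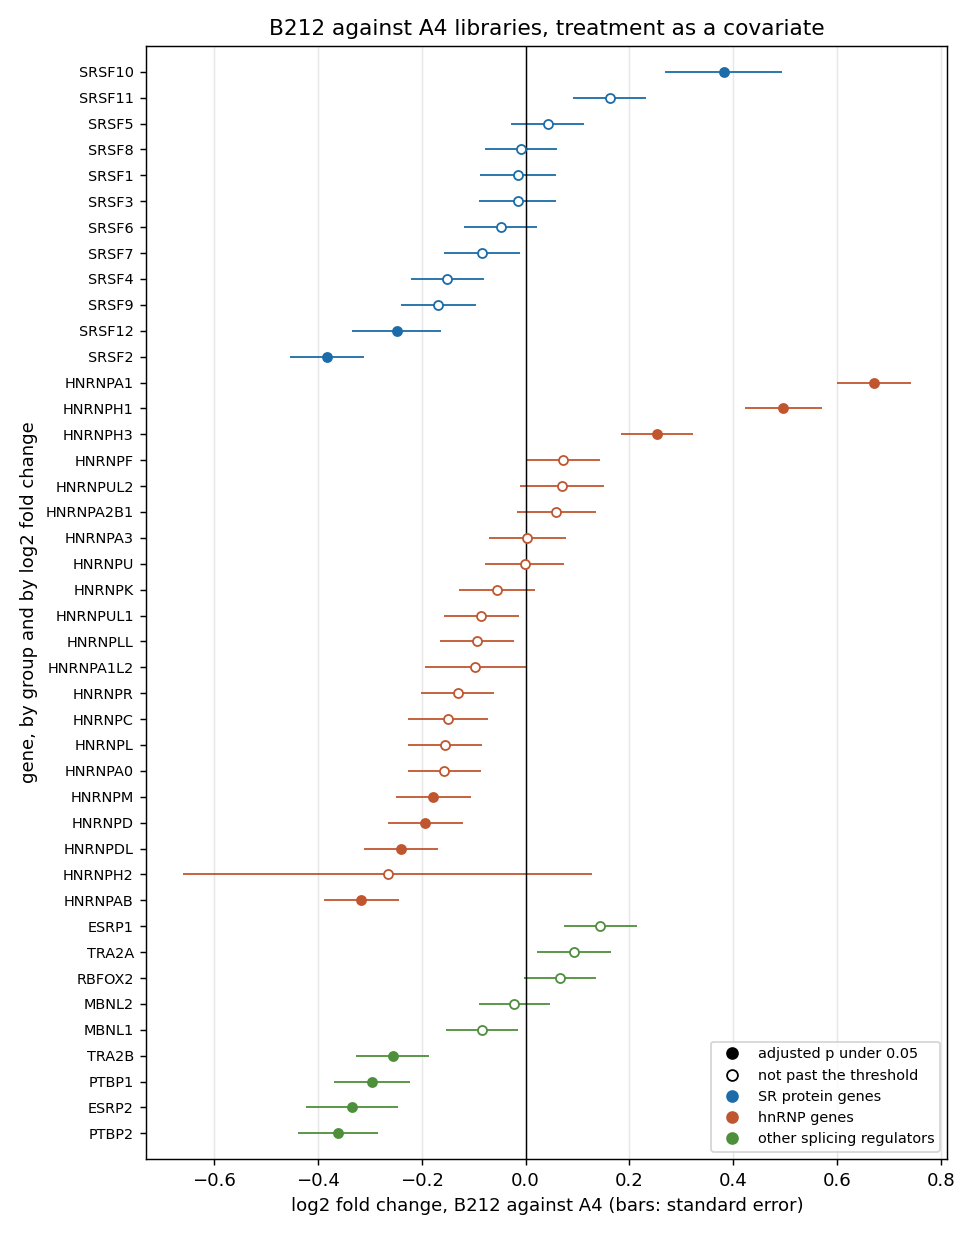
Log2 fold change between the B212 and A4 libraries for 42 genes with its standard error, filled where the edgeR adjusted p was under 0.05. The 4 called genes on the right are HNRNPA1, HNRNPH1, HNRNPH3 and SRSF10, and the 10 on the left range from −0.18 (HNRNPM) to −0.38 (SRSF2).

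The clone calls rest on 2 libraries per tag. Leaving out a library also removed the treatment term and left 1 library for a tag, so only effect sizes are given for those fits. Across them the members' median log2 fold change stayed between −0.0957 and −0.0734, beside −0.0842 with every library. The median over all genes stayed between −0.0083 and 0.0102, beside 0.0042. With all 4 libraries and no treatment term the count of 14 called members became 3. Calls over all 15599 genes also fell in that fit, from 3927 to 2297 higher and from 4023 to 2159 lower.

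The machinery that acts with these proteins was read from 5 lists. SR proteins are phosphorylated by SRPK and CLK kinases and imported into the nucleus by TNPO3, and the list also holds the kinases DYRK1A, DYRK1B and PRPF4B. Of the 11 genes tested, 1 was called higher with E2 and the block and 0 lower, with a median log2 fold change of 0.01. Over all genes 6.13% were called higher and 3.44% lower. The called gene was CLK1, a nuclear kinase of SR proteins, at 62.36, 74.41, 65.34 and 89.75 CPM (A4 DMSO, A4 E2, B212 DMSO, B212 E2). Its log2 fold change was 0.36 ± 0.07 (edgeR adjusted p = 0.00637), and it passed also after correction for length and GC (0.26, edgeR adjusted p = 0.0463). Between the clones 4 of the 11 (36.4%) were higher in B212 and 0 lower, where 51.0% of all genes were called. Scaled by library size only 8 were higher, and after correction for length and GC 4 were higher and 2 lower, with the median moving from 0.16 to 0.04. The median over all genes moved from 0.00 to −0.05 with that correction. Of all 15599 genes, 4761 were called higher by library size only, and 3632 higher and 5268 lower after the correction. The calls were led by DYRK1B (0.48), CLK3 (0.47) and SRPK3 (1.33, under 1 CPM). With 1 library left out, which leaves 1 library for a tag, the median of the 11 ranged from 0.11 to 0.24.

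Arginine methyltransferases modify the glycine and arginine rich tails of many hnRNPs. All 7 listed genes were called between the clones, where 51.0% of all genes were. Of these 7, 6 were lower in B212 and PRMT6 was higher, with a median of −0.50. WDR77, the partner of PRMT5, had 88.78 and 87.79 CPM in A4 and 52.24 and 55.10 in B212 (−0.72 ± 0.07, edgeR adjusted p = 7.16e-08). PRMT1, the main type I enzyme, had 251.0 and 282.4 CPM in A4 and 168.5 and 175.6 in B212 (−0.63 ± 0.07, edgeR adjusted p = 3.34e-07). PRMT3 followed at −0.54. The median of the 7 ranged from −0.51 to −0.48 with 1 library left out, which leaves 1 library for a tag. With E2 and the block CARM1 alone was called (−0.22, edgeR adjusted p = 0.0468), 14.3% of the 7 beside 9.56% of all genes. The call was lost after correction for length and GC (edgeR adjusted p = 0.259).

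Core spliceosome proteins build the snRNPs on which SR proteins act. Of 41 tested genes 9 were called higher with E2 and the block and 1 lower, where 6.13% of all genes were called higher and 3.44% lower, and their median was 0.03. Those with the smallest p were SNRPG (0.65 ± 0.08, edgeR adjusted p = 1.53e-04), SNRPB2 (0.36 ± 0.07, 0.00476) and SNRPD2 (0.44 ± 0.09, 0.00562). SNRPG and SNRPD2 encode proteins of the Sm ring, and SNRPB2 a protein of the U2 snRNP. SNRPG had 47.83 and 83.91 CPM in A4 (DMSO, E2) and 42.71 and 59.63 CPM in B212. The call counts became 3 higher and 0 lower after correction for length and GC (7.32%, with 3.89% of all genes called). In DESeq2, which called 3.60% of all genes, they were 4 higher and 0 lower. After that correction SNRPG was at 0.38 and SNRPD2 at 0.31, both still called, and SNRPB2 was not (0.20, edgeR adjusted p = 0.0544). Between the clones the list had a median of −0.23, with calls led by EFTUD2 (−0.59), SNRPF (−0.44) and PRPF19 (−0.43). Beside 25.8% of all genes called lower and 25.2% higher, 27 of the 41 were lower in B212 and 0 higher. The count called lower was 33 after correction for length and GC, 21 in DESeq2, 19 when scaled by library size only and 7 with no treatment term. In the same order these fits called 5268, 3019, 3176 and 2159 of all 15599 genes lower, beside 4023 in the fit above. With 1 library left out, which leaves 1 library for a tag, the median of the 41 ranged from −0.28 to −0.19.

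Exon junction complex and SR-related genes gave 0 calls with E2 and the block among 12 by edgeR, with 2 at an unadjusted p under 0.05 and 0 called by DESeq2. Between the clones 5 were lower, among them MAGOH (−0.38) and EIF4A3 (−0.34), and PNN, a speckle protein, was higher (0.38). The called genes were 50% of the 12, beside 51.0% of all genes. With 1 library left out, which leaves 1 library for a tag, the median of the 12 ranged from −0.19 to −0.12, beside −0.14 with every library. Other regulators of alternative splicing, 34 tested of 37, gave 3 calls higher and 2 lower with E2 and the block. Of all genes 6.13% were called higher and 3.44% lower. RBM24, a muscle regulator, had 0.26, 0.98, 0.33 and 1.16 CPM (1.86 ± 0.29, edgeR adjusted p = 0.00105), a large fold from few reads. RAVER1 was lower (−0.28) and TIAL1 higher (0.26). DESeq2 called 1 of the 34 higher and 0 lower, and 3.60% of all genes. Between the clones 9 were higher and 6 lower, 44.1% of the 34 beside 51.0% of all genes, led by KHDRBS2 (1.51), CELF4 (1.13) and RBM47 (0.55), an epithelial splicing regulator. The median of the 34 ranged from 0.05 to 0.07 with 1 library left out, beside 0.06 with every library. After correction for length and GC 9 were called each way, where 3632 of all 15599 genes were called higher and 5268 lower.

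**Figure D4:**
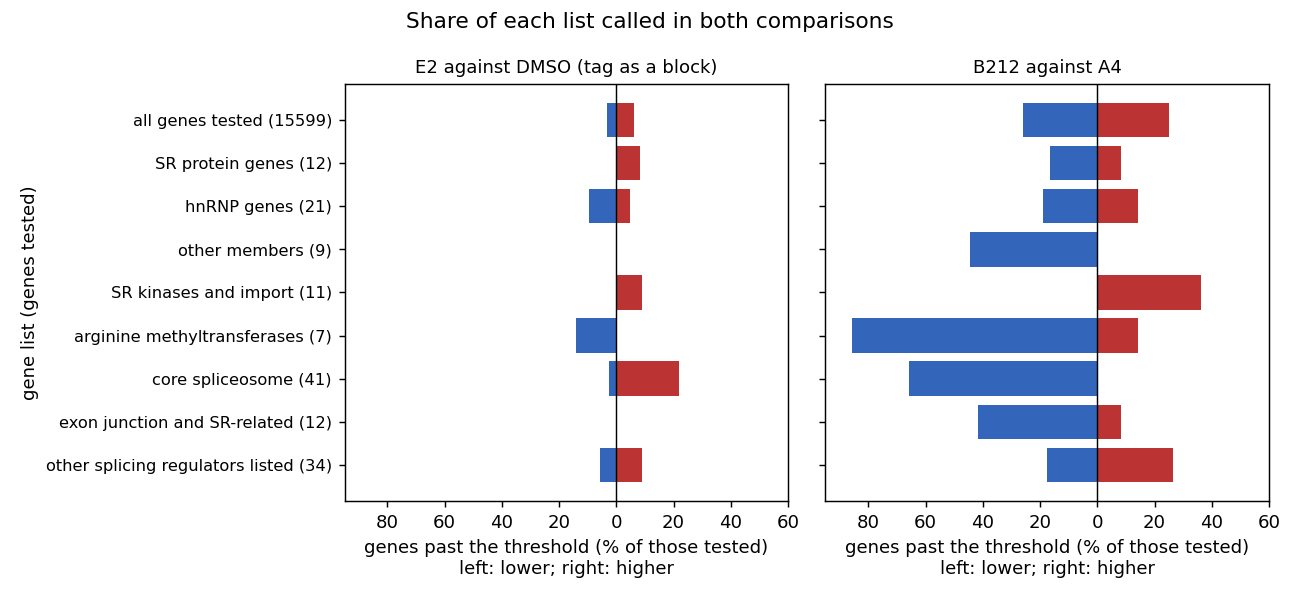
Percentage of each list's tested genes called higher (right) or lower (left), for E2 within clones (tag as a block) and for B212 against A4, beside all genes tested. In the clone comparison 27 of 41 core spliceosome genes were called lower in B212, while 25.8% of all genes were. So were 6 of 7 genes of the arginine methyltransferase list, which includes WDR77, a partner protein.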

How the data were processed

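Poly(A) RNA was sequenced from 4 libraries, with the KAPA Stranded mRNA-Seq kit per the labels' protocols. The deposited values were raw counts per gene symbol, and HISAT2, SAMtools, featureCounts, DESeq2 and hg19 are named per the submitters' processing notes. The counting annotation and strand setting are not given in the sources used here. Antisense and overlapping genes, such as HNRNPU with HNRNPU-AS1 and MBNL1 with MBNL1-AS1, are therefore uncertain. Another 4 columns of per-sample values match no sample and were not used.

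Counts were tested with edgeR 4.0.16 (quasi-likelihood, TMM, filterByExpr with a minimum count of 10, 15599 genes, Benjamini-Hochberg over all of them, threshold 0.05), in R 4.3.3. CPM had TMM-scaled library sizes, and per-library log2 differences a prior count of 2. Standard errors were derived from fold changes and F statistics. The planned E2 fit had no block. Same-tag libraries deviated together (r = 0.871, and component 1, with 84.1% of the variance, separated the tags), and pairs come from the same clone by column name, so the fit with the tag as a replicate block (4 members called) is given beside it. The clone comparison had treatment as a covariate.

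Transcript length, GC content and shared 32-base words came from 1 GENCODE 29 transcript per symbol, with 96.7% of tested genes matched. Promoters came from RefSeq (GRCh38.p14), not from the build of the counts. Alternatives used DESeq2 1.42.0, limma 3.58.1 (voom), other scalings and filters, a length and GC trend fitted with mgcv 1.9.3, and each library left out. The scripts were tested on simulated data. Figures were drawn with Python 3.11.15 and matplotlib 3.10.9.

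The members and lists were chosen with earlier results of these data known. Values per library are given for members past the threshold in the E2 fit with or without the block, for up to 6 members in each direction past it between the clones, and for the 9 genes taken by name. At most 3 genes per list are named, those with the smallest p, together with a few given as examples after their values were seen.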

Additional observations from a re-analysis of the deposited data

Results flagged for a closer look

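For 5 genes the E2 difference pointed one way in A4 and the other way in B212, with 1 library per clone and treatment, so the difference was not tested. SRSF5 had a log2 difference of -0.02 in A4 and 0.13 in B212, which is 0.156 more in B212. HNRNPH1, at -0.06 and 0.08, differed by 0.140. SRSF1 differed by 0.095, from -0.03 to 0.07, and SRSF4 by 0.089, from -0.04 to 0.05. HNRNPL was above 0 in A4 (0.04) and below 0 in B212 (-0.04), a difference of -0.082. With the block the largest fold change among the 5 was that of SRSF5, at 0.055 on the log2 scale.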

How the results depend on the processing

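E2 without a block called 0 members in every alternative run without a block, and 4 with the replicate block. Its median log2 fold change of 0.0089 ranged from -0.0462 to 0.0477 when 1 library was left out, under the assumption that a lone library varies like the others. With the replicate block the count of 4 became 0 with DESeq2 size factors, 7 (2 higher, 5 lower) with library size only, 1 in DESeq2, 2 in limma-voom and 2 after correction for length and GC, which also moved the median to -0.0611. In the same order these fits called 455, 911, 376, 757 and 386 of all 15599 genes higher. They called 262, 775, 186, 381 and 221 lower, beside 956 higher and 536 lower in the main blocked fit. The median over all genes was -0.0081 in that fit and -0.0131 after the correction. DESeq2 gave no adjusted p for HNRNPH2, HNRNPA1L2, SRSF10 and ESRP2 with the block. A library could not be left out with the block, since no residual degree of freedom remains. Between the clones the count of 14 became 3 with no treatment term and 23 after that correction. Over all 15599 genes these fits called 2297 higher and 2159 lower, and 3632 higher and 5268 lower. The count was 0 when a log2 fold change of 1 or more in size was also required, which 11.0% of all genes met. The clone median of -0.0842 became -0.0934 with DESeq2 size factors, -0.0171 with library size only, -0.1061 with no filter, -0.0933 in DESeq2 and -0.1456 after the correction, and ranged from -0.0957 to -0.0734 over the left-out libraries. The median over all genes moved too, from 0.0042 to -0.005 with DESeq2 size factors and 0.0714 with library size only. It was -0.0172 with no filter, -0.0047 in DESeq2 and -0.0527 after the correction. Signs reversed for genes that were not called in that comparison. ESRP2 with E2 was 0.0166 with the block and the correction, and -0.2874 to 0.0959 with 1 library left out (0.0414 without the B212 E2 library). With E2, TRA2B ranged from -0.0316 (-0.0087 without the B212 DMSO library) to 0.2506, and ESRP1 from -0.1836 to 0.0017. Between the clones MBNL2 was 0.0455 with library size only and ranged from -0.1332 to 0.0737 (0.0479 without the A4 DMSO library), TRA2A from -0.0683 to 0.2457, and RBFOX2 from -0.0156 (-0.0088 without the B212 DMSO library) to 0.1398. The causes were not tested.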

Other observations

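Ratios of paralogs, taken from CPM per kilobase in the same library, showed where closely related splicing factors differ in abundance. ESRP1 exceeded ESRP2 by 10.93 (A4 DMSO), 11.75 (A4 E2), 16.22 (B212 DMSO) and 15.36 (B212 E2) times, so both B212 libraries lay above both A4 libraries. PTBP1 exceeded PTBP2 by 46.98 and 34.32 times in A4 (DMSO, E2) and by 47.55 and 37.09 times in B212, so the ratio was lower with E2 in both clones. Its size rests on the transcript lengths used, 3691 bases for PTBP1 and 12014 for PTBP2. TRA2B exceeded TRA2A by 3.18 and 2.829 times in A4 and by 2.375 and 2.335 times in B212. The ratio of MBNL1 to MBNL2 stayed between 1.669 and 1.843, and that of SRSF3 to SRSF7, a pair of close relatives, between 1.177 and 1.309. These are single-library values without a test.

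Raw counts of antisense RNA rows beside members, unscaled and without a test, were as follows. HNRNPU-AS1 had 451 and 545 in A4 (DMSO, E2) and 1000 and 1233 in B212, while HNRNPU itself had a clone log2 fold change of 0.00. MBNL1-AS1 had 680 and 671 counts in A4 and 1021 and 753 in B212. Without the strand setting, reads of these rows and of their partners cannot be told apart.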
